A study of Homo sapiens with 4 samples.

Results

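The genes described here are 10 secreted signalling proteins of the NF-kB pathway: the chemokines CXCL8, CXCL1, CXCL2, CXCL3, CXCL5, CCL20 and CCL2 and the interleukins IL1A, IL1B and IL6. They were chosen by gene symbol, and each symbol matched 1 of the 62696 gene rows of every library. RNA was sequenced from OVCAR3, an established human line of serous ovarian carcinoma. 3 libraries came from OVCAR3 cells with a short hairpin RNA against ANAPC1P2, a pseudogene transcript related to a subunit of the anaphase-promoting complex (knockdown, KD 1, KD 2 and KD 3), and 1 library came from wild-type OVCAR3 cells (WT). Both kinds of cell were grown in RPMI medium with foetal bovine serum, and no library is labelled as carrying a non-targeting hairpin, so carrying a hairpin and losing the transcript cannot be told apart. The labels do not say whether the 3 knockdown sets were separate cultures, hairpins or repeats of 1 preparation, or whether the line was 1 clone. The p-values therefore measure only how far these libraries spread, which may be technical variation, and the single WT library is assumed to vary like the KD libraries.

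NF-kB is a family of transcription factors that inhibitor proteins hold in the cytoplasm. When receptors for interleukin-1, tumour necrosis factor or bacterial products activate the IkB kinase, the inhibitors are degraded and the factors bind short sites, called kB sites, in the promoters of chemokine and cytokine genes. CXCL8, CXCL1, CXCL2, CXCL3 and CXCL5 attract neutrophils through the receptor CXCR2, and CXCL8 also through CXCR1. CCL20 attracts lymphocytes and dendritic cells through CCR6, and CCL2 attracts monocytes through CCR2. IL1A and IL1B start the pathway, IL6 signals through the shared receptor chain IL6ST, and ovarian carcinoma cells are known to secrete several of these proteins.

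The promoters of the genes are shown because the kB site is where the pathway acts on them. Each line gives the bases from -120 to -21 of the RefSeq start site (GRCh38.p14), 5′ to 3′ on the gene's own strand. Capitals mark matches to GGNNTTTCC, a form of the kB site, on either strand. The first 5 lines are the neutrophil chemokines of the chromosome 4 cluster, followed by CCL20, IL6 and, as a window without a match, IL1B.
CXCL8 (chr4:73740449-73740548, plus strand): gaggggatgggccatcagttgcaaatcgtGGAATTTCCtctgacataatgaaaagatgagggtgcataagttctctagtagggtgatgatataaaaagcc
CXCL1 (chr4:73869273-73869372, plus strand): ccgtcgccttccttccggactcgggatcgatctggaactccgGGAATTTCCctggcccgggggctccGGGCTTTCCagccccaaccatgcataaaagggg
CXCL2 (chr4:74099216-74099315, minus strand): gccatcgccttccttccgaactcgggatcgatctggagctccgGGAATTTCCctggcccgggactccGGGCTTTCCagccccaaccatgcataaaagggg
CXCL3 (chr4:74038710-74038809, minus strand): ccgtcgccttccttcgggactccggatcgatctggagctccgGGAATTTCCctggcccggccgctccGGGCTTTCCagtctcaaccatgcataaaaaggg
CXCL5 (chr4:73998698-73998797, minus strand): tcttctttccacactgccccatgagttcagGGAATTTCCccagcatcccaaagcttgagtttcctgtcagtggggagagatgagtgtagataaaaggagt
CCL20 (chr2:227813722-227813821, plus strand): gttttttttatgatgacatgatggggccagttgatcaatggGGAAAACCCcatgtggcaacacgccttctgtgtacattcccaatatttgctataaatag
IL6 (chr7:22727080-22727179, plus strand): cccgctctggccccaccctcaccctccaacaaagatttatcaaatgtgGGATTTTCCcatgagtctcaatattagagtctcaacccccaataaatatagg
IL1B (chr2:112836800-112836899, minus strand): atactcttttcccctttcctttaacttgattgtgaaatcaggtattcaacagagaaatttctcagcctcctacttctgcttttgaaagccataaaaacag

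RefSeq promoters, which run from 250 bases before to 50 bases after the start site, were matched for 9 of the 10 genes. CCL2 had no entry. GGNNTTTCC was found on either strand in 7 of the 9 genes and in 6.26% of all 35116 promoters of the same length. The more exact GGAATTTCC, each match of which also matches GGNNTTTCC, was found in 5 of the 9 genes, which were the 5 CXCL genes, and in 0.461% of all promoters. Its first base lay at -91 in CXCL8, -90 in CXCL5, -78 in CXCL1 and CXCL3, and -77 in CXCL2. CXCL1, CXCL2 and CXCL3 carried another match, GGGCTTTCC, at -53. CXCL1 and CXCL3 were 82.5% identical over the promoter, CXCL2 and CXCL3 73.8%, and CXCL1 and CXCL2 71.9%, whereas CXCL8 was 45.2% to 48.0% identical to the other 4. The CCL20 match read GGGTTTTCC on the opposite strand, and the IL6 match read GGATTTTCC at -72. The promoters of IL1A and IL1B held no match in this window. TTGCNNAA, a form of the site of C/EBP factors, was found in CXCL2, IL1B and IL6 and in 10.5% of all promoters. TGACTCA, a site of AP-1 factors, was found in CXCL8 and IL1A and in 4.95% of all promoters. These matches describe letters and not bound factors. The motifs were chosen with the sequences in view, so the shares over all promoters are no test of these genes. CXCL1, CXCL2 and CXCL3, being alike in sequence, do not count as separate matches.

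The libraries held 48443589, 56216398 and 42871815 counted reads in KD 1, KD 2 and KD 3, and 27868718 in WT. The targeted gene was low in every library: its row with reads held 0, 11 and 8 reads in KD and 14 in WT, which is below the filter of the test, so the label could not be checked at this depth. All 16 genes of a serous ovarian epithelial list had reads in every library, and 10 of them were called higher and 4 lower, or 6 and 6 with equal totals. EPCAM had 6363 ± 505 in KD and 2631 in WT, PAX8 19884 ± 1521 and 62685, and MUC16 (CA-125), with the largest difference of the list, 28927 ± 5655 and 458889.8 (log2 difference -4.01). The WT library stood apart from the KD libraries, since it held red-cell transcripts at a summed 14862 normalized counts, against 3.79, 1.55 and 2.22 in KD. Its 17 leukocyte markers all had reads and summed to 1644, whereas 10 of the 17 had reads in each KD library and they summed to 445, 420.4 and 456. FCGR3B, LYZ, CD68, MS4A1 and ITGAM had no read in KD. Neural markers summed to 5602, 5807 and 6389 in KD and 6188 in WT, although 5 of the 8 tested were called lower in KD. Among tested protein-coding genes 45.9% were called higher and 24.7% lower. With equal totals 20.3% of all tested genes were called higher and 53.6% lower. The epithelial counts lie near the protein-coding shares. Every comparison below rests on this 1 WT library and cannot be given without it, and in bulk RNA fewer cells of a type and less RNA per cell cannot be told apart.

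Values are the deposited normalized read counts, and a difference is that of log2(value + 1), KD minus WT, fitted with limma across 23344 genes whose mean was 10 or more. A gene was called where the Benjamini-Hochberg adjusted p was under 0.05. Of the 10 genes, all tested, 6 were called higher in KD (CXCL8, CXCL1, CXCL2, CXCL3, CCL20 and IL6), 2 were called lower (CCL2 and IL1B) and 2 were not called (CXCL5 and IL1A). Among all tested genes 31.4% were called higher and 36.3% lower, 67.7% together. Among tested protein-coding genes the shares were 45.9% higher and 24.7% lower, so that a call alone sets none of these genes apart. Few genes were higher in KD by as much as CXCL8: a log2 difference at or above its value was seen in 133 tested genes, or 0.57%. That share leaves out genes lower in KD, where large differences were more common. A log2 difference of -2.42 (that of IL1B) or lower was seen in 3275 tested genes, and MUC16 differed by -4.01. Under the deposited scaling all 3 KD libraries lay above WT in 7 of the 10 genes and below WT in 2, against 40.0% and 52.2% of all tested genes. For CXCL2 and CXCL5 this order was lost when reads were divided by the library total. The median difference was 1.08 for the 10 genes, -0.28 for all tested genes and 0.28 for protein-coding ones. With library totals made equal these medians were 0.52 for the 10 genes and -0.84 for all tested genes, and 20.3% of genes were called higher and 53.6% lower, so each difference is best read beside that shift. edgeR and DESeq2, run on recovered reads, called the same 6 genes higher and the same 2 lower; edgeR called 34.2% of all tested genes higher and 36.5% lower, and DESeq2 called 33.6% higher and 25.8% lower. Without a filter on low values only CXCL8, CXCL1 and CCL20 were called higher (15.8% of genes higher, 22.3% lower), and with a mean of at least 50 IL1B was not tested (45.4% of genes higher, 32.5% lower). An exact permutation test of 1 gene, 3 libraries against 1, cannot give a one-sided p below 0.25.

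**Figure D1:**
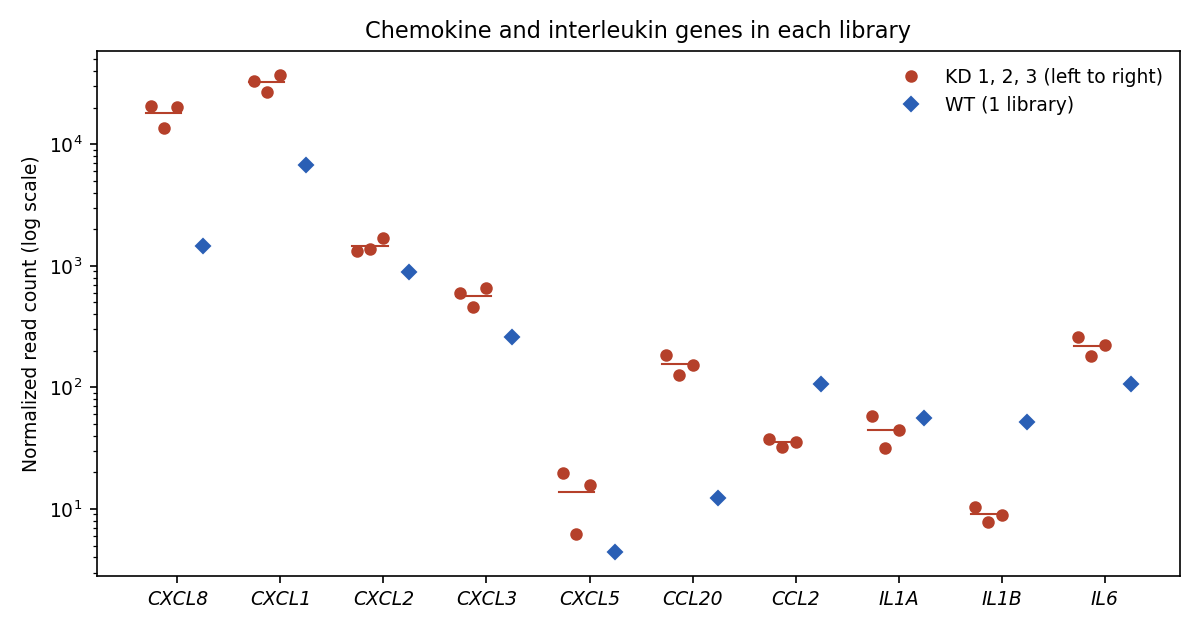
Normalized read counts (log axis) of the 10 chemokine and interleukin genes, with 1 point per library, KD 1 to 3 left of WT, and a line at the KD mean. CXCL8 lies between 13484 and 20493 in KD and at 1461 in WT, whereas IL1B lies between 7.77 and 10.4 in KD and at 52.2 in WT.

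Among the neutrophil chemokines, CXCL8 (interleukin-8; chromosome 4, 73740506 to 73743716, plus strand, GRCh38, GENCODE 29) showed the largest difference. It had 20493, 13484 and 20049 normalized counts in KD 1, 2 and 3, against 1461 in WT. All 3 KD libraries were far above WT, with KD 2 the lowest of them. The KD mean of 18008 ± 3925 (SD, n = 3) was 12.3-fold that of WT, a log2 difference of 3.60 (SE 0.24, limma adjusted p = 7.89e-05). From 17352 to 21621 reads in each KD library and 1315 in WT, the exact 95% interval of the pooled ratio was 11.4 to 12.7, which covers counting error only.

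CXCL1 (73869393 to 73871242, plus strand), the most abundant of the 10 per length, had 33335, 26845 and 37332 normalized counts in KD and 6689.7 in WT. Every KD library lay further above WT than the KD libraries lay from each other. The KD mean was 32504 ± 5292, 4.86-fold that of WT, with a log2 difference of 2.27 (SE 0.19, limma adjusted p = 1.49e-04). In RPKM, which divides reads by exon length and library total, CXCL1 stood at 560.2, 474 and 604 in KD and 167 in WT, and ranked 22, 26 and 18 in KD and 70 in WT among 19849 protein-coding genes. CXCL8 stood at 196, 136 and 185 in KD and 20.8 in WT on the same per-length scale, with ranks 129, 198 and 137 in KD and 1846 in WT. In KD, then, CXCL8 moved among the most abundant messages of these cells, beside CXCL1.

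CXCL3 (74036589 to 74038807, minus strand) and CXCL2 (74097035 to 74099293, minus strand) encode close relatives of CXCL1 and changed less. CXCL3 had 593, 459 and 651 normalized counts in KD and 258 in WT, and CXCL2 had 1313, 1383 and 1693 in KD and 891 in WT. The groups did not overlap for either gene. CXCL3 was 2.2-fold higher in KD, with a log2 difference of 1.12 (SE 0.21, limma adjusted p = 4.15e-03). CXCL2 was 1.64-fold higher, with a log2 difference of 0.71 (SE 0.16, limma adjusted p = 8.23e-03). With equal library totals the CXCL2 difference was 0.14 and was not called (limma adjusted p = 0.362, against 1.07e-06 to 0.362 over its 12 alternatives). In RPKM, CXCL2 stood at 19.1, 21.1 and 23.7 in KD and 19.2 in WT, with WT inside the KD range, and CXCL3 at 5.82, 4.74 and 6.16 in KD and 3.75 in WT. CXCL2 and CXCL3 shared 1.83% and 1.15% of their 150-base stretches with each other, and the sources used here do not say how reads that match several genes were counted.

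CXCL5 (73995642 to 73998779, minus strand), another neutrophil chemokine of the cluster, was close to the limit of detection. It had 19.9, 6.22 and 15.6 normalized counts in KD and 4.44 in WT, from 21, 8, 14 and 4 reads. Under the deposited scaling the KD libraries lay above WT, but KD 2 only by a few reads. In RPKM, KD 2 stood at 0.0561 and WT at 0.0566, so KD 2 was not above WT. The log2 difference of 1.32 had an SE of 0.78 and was not called (limma adjusted p = 0.173), and the pooled ratio of 2.99 had a counting interval of 1.09 to 11.5. A change of the size seen in CXCL3 was not detectable at this depth.

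**Figure D2:**
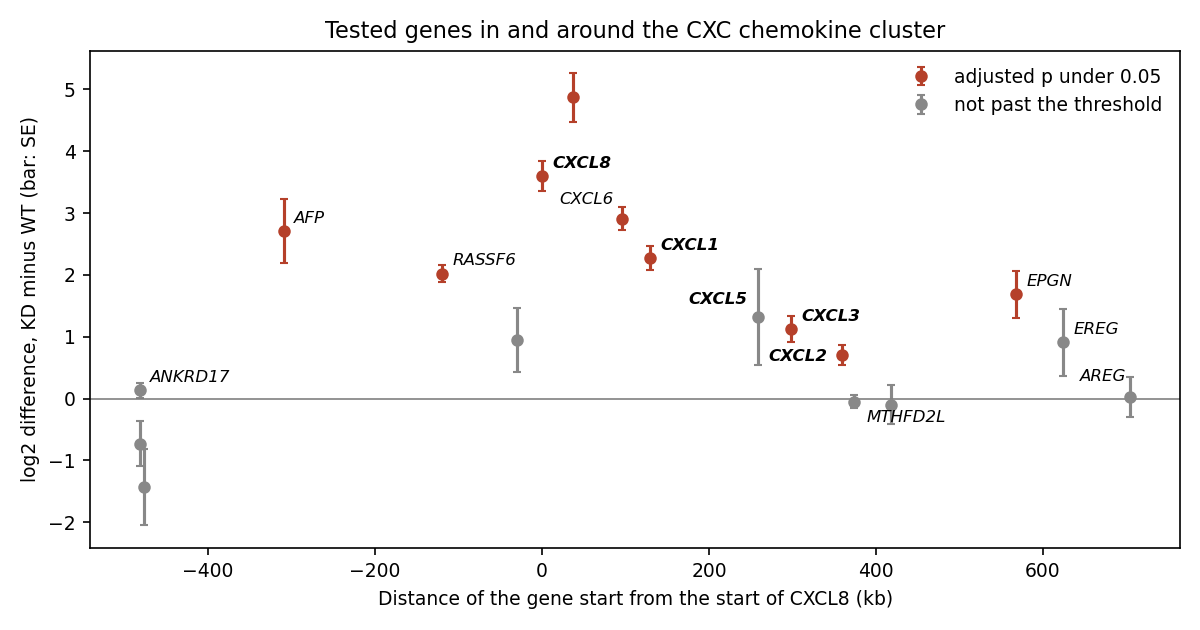
Log2 difference, KD minus WT, with its SE, of the tested genes in and around the chromosome 4 chemokine cluster against distance from the CXCL8 start in kb; points without a name are not protein-coding. The difference is 3.60 at CXCL8, 2.91 at CXCL6, 2.27 at CXCL1, 1.12 at CXCL3 and 0.71 at CXCL2. Beyond CXCL2 it is -0.05 at MTHFD2L, 1.69 at EPGN, 0.91 at EREG and 0.02 at AREG.

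The neutrophil chemokines lie in 1 cluster on chromosome 4, and the differences of the tested ones stood in the order of their positions. PPBP, another chemokine gene of the cluster at 247.7 kb from the CXCL8 start, was below the filter and went the other way. It had 0, 0 and 2 reads in KD and 9 in WT. With distance from the CXCL8 start, the log2 difference was 3.60 at CXCL8, 2.91 at CXCL6 (96.0 kb), 2.27 at CXCL1 (128.9 kb), 1.32 at CXCL5 (258.3 kb), 1.12 at CXCL3 (298.3 kb) and 0.71 at CXCL2 (358.8 kb). The plot of the cluster by distance shows this order, which was noticed after the values were seen and was given no test; CXCL5, with its wide SE, could stand elsewhere in it. CXCL6, which encodes a further neutrophil chemokine of the same family, had 4222, 3491 and 4814 normalized counts in KD and 549 in WT (limma adjusted p = 6.9e-05). Within 500 kb of these genes, 13 other genes were tested, of which 5 were called higher, 0 lower and 8 were not called, beside 31.4% and 36.3% over all tested genes. The higher ones were CXCL6, RASSF6 (754 ± 55.4 in KD against 185 in WT), AFP (42.9 ± 11.6 against 5.55), EPGN, which encodes an epidermal growth factor relative (197 ± 68.4 against 57.8), and 1 processed pseudogene. That pseudogene lies between CXCL8 and CXCL6, had 93.7 ± 9.99 in KD and 2.22 in WT and, at a log2 difference of 4.87, stands outside the order of the chemokines. Beyond CXCL2, MTHFD2L (373.7 kb) differed by -0.05 and AREG (704.6 kb) by 0.02, and neither was called. Between these 2 genes, EPGN (568.0 kb) differed by 1.69 and was called, and EREG (624.6 kb) by 0.91 and was not called. The order of the chemokines therefore did not continue past CXCL2.

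Ratios of reads within a library do not depend on how libraries were scaled. CXCL8 had 61.5, 50.2 and 53.7 reads for every 100 of CXCL1 in KD, against 21.8 in WT. CXCL3 had 1.78, 1.71 and 1.75 reads per 100 of CXCL1 in KD and 3.85 in WT, and CXCL2 had 3.94, 5.15 and 4.54 in KD and 13.3 in WT. The KD libraries therefore lay on 1 side of WT in each of these ratios: the neutrophil chemokines did not change in equal measure, and CXCL8 gained on CXCL1 while CXCL2 and CXCL3 lost ground to it. CXCL6 had 20.6, 25.9 and 24.0 reads per 100 of CXCL8 in KD and 37.6 in WT. Of the reads of all 10 genes together, CXCL8 held 36.4%, 31.7% and 33.3% in KD and 15.2% in WT, and CXCL1 held 59.2%, 63.1% and 62.0% in KD and 69.4% in WT. Summed, the 10 genes took 1226, 974 and 1263 RPM (reads scaled to 1 library total) in KD and 311 in WT, so CXCL8 and CXCL1 made up nearly all of the chemokine and interleukin RNA of this set.

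The 2 CC chemokines moved in opposite directions. CCL20 (chromosome 2, 227805739 to 227817564, plus strand) had 186, 127 and 153 normalized counts in KD and 12.2 in WT, from 11 WT reads. The groups were far apart, with a log2 difference of 3.55 (SE 0.33, limma adjusted p = 2.03e-04) and a pooled ratio of 12.6 with a counting interval of 6.97 to 25.4. CCL2 (chromosome 17, 34255218 to 34257203, plus strand), the monocyte chemokine, had 37.9, 32.6 and 35.6 in KD and 106 in WT. All KD libraries were below WT and close to each other, and CCL2 was 2.98-fold lower, with a log2 difference of -1.55 (SE 0.36, limma adjusted p = 9.35e-03). CCL2 had 20.4, 25.6 and 23.2 reads for every 100 of CCL20 in KD and 864 in WT, which turned the order of these chemokines round. By contrast CCL20 kept pace with CXCL8, at 9.07, 9.45 and 7.65 reads per 1000 of CXCL8 in KD and 8.37 in WT, where WT lay within the KD range.

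The interleukin-1 genes lie side by side on chromosome 2 and both were scarce. IL1A (112773915 to 112784590, minus strand), the form that is active without cleavage, had 57.8, 31.9 and 44.5 normalized counts in KD and 55.5 in WT. KD 1 was above WT and the others below it, so the groups overlapped. The log2 difference was -0.35 (SE 0.45, limma adjusted p = 0.509), and the counting interval of the pooled ratio, 0.568 to 1.11, leaves room for no difference and for a fall.

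IL1B (112829751 to 112836903, minus strand), whose product must be cleaved to be active, had 10.4, 7.77 and 8.89 normalized counts in KD and 52.2 in WT, from 11, 10 and 8 reads in KD and 47 in WT. All KD libraries were well below WT. IL1B was 5.78-fold lower in KD, with a log2 difference of -2.42 (SE 0.54, limma adjusted p = 8.32e-03) and a counting interval of 3.6 to 9.61 for the pooled ratio of WT over KD. A log2 difference as low as that of IL1B or lower was seen in 3275 of all tested genes. Monocytes are a known source of IL1B and CCL2, and the WT library held more leukocyte RNA. Of 17 leukocyte markers, 11 were tested, and 0 were called higher and 9 lower in KD. Among tested protein-coding genes 45.9% were called higher and 24.7% lower. The sums of the 17 markers were 445, 420.4 and 456 in KD and 1644 in WT, with 5 of them at 0 in all KD libraries. The part of leukocyte RNA in the lower IL1B and CCL2 values was not tested.

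IL6 (chromosome 7, 22725884 to 22732002, plus strand), an inflammatory cytokine with a known role in ovarian carcinoma, had 258, 179.5 and 223 normalized counts in KD and 106 in WT. The groups did not overlap, although KD 2 lay nearer to WT than the other KD libraries. The KD mean was 2.09-fold that of WT, with a log2 difference of 1.04 (SE 0.26, limma adjusted p = 0.0118). With equal library totals it was 0.48 and was not called (limma adjusted p = 0.117, against 5.12e-04 to 0.117 over its 12 alternatives). IL6 had 7.73, 6.69 and 5.99 reads for every 1000 of CXCL1 in KD and 15.8 in WT, so it rose less than CXCL1. The gene overlaps STEAP1B on the other strand, which had 113 ± 21.7 normalized counts in KD and 52.2 in WT and was called higher with a log2 difference of 1.08. Since the sources used here do not state the strand setting of the counting, reads of IL6 and of STEAP1B or of the antisense transcript IL6-AS1 may have been mixed.

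**Figure D3:**
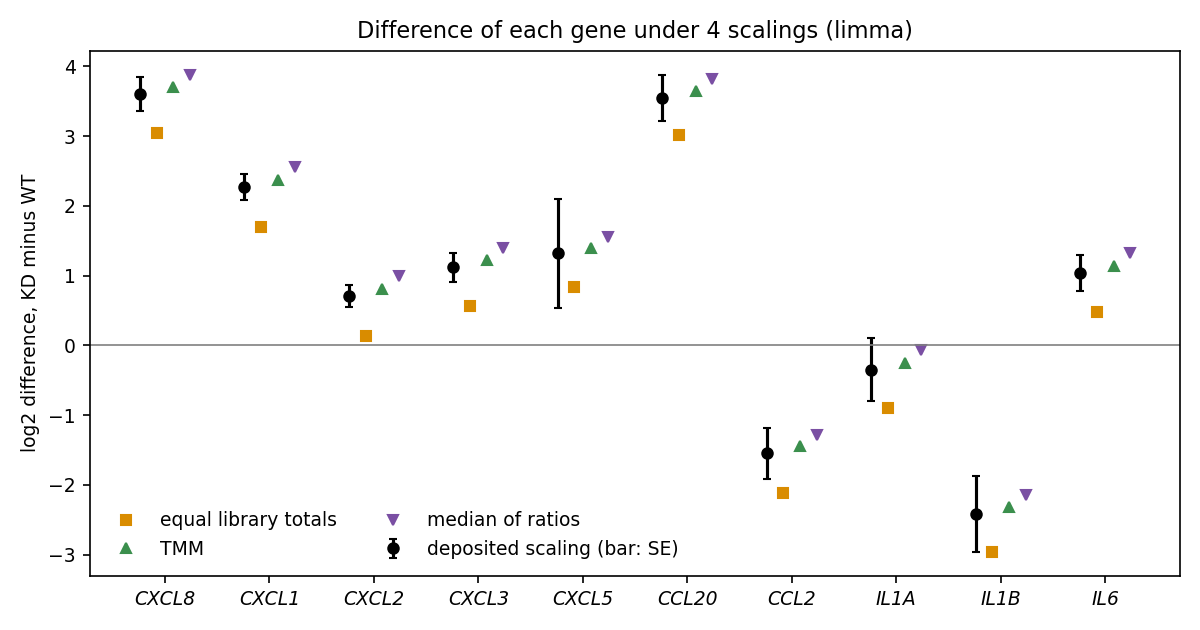
Log2 difference, KD minus WT, of the 10 genes under the deposited scaling, equal library totals, TMM and median-of-ratios scaling, with 1 symbol per scaling and the SE as a bar on the deposited one. Every gene keeps its sign; CXCL2 falls to 0.14 and IL6 to 0.48 with equal totals, where neither is called.

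KD 2 held the lowest value of the 3 KD libraries in 9 of the 10 genes, all but CXCL2, against 38.6% of all tested genes, and in RPM in 8 of the 10, against 24.1%. It was the library with the most reads, and the part of depth in this pattern was not tested. The coefficient of variation over the KD libraries was 21.8% for CXCL8, 16.3% for CXCL1 and 13.8% for CXCL2. Among the 7343 genes with a KD mean of at least 1000 the median was 6.52%, and 0.381%, 1.35% and 3.05% of them varied at least as much as CXCL8, CXCL1 and CXCL2. The most abundant chemokines thus varied more between the KD libraries than most genes of their level. CCL2, at 7.47%, varied less than most of the 7933 genes with a KD mean of 10 to 100, whose median was 26.7%. Counting error alone would give CCL2 16.4%, so its low spread is not read as a trait of the gene.

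The receptors of these ligands differed in both directions. Of 14 receptor genes 11 were tested, 6 were called higher, 3 lower and 2 were not called, with a median difference of 1.14. The shares to set beside this list and those below are 45.9% higher and 24.7% lower over tested protein-coding genes, whose median was 0.28. With equal totals, 20.3% of all tested genes were called higher and 53.6% lower. The neutrophil receptors were absent or nearly so in KD: CXCR1 had 0 reads in all 3 KD libraries and 65 in WT, at least 78.0-fold lower against a floor of 3 reads over the KD group. CXCR2 had 2, 0 and 0 reads in KD and 129 in WT, a ratio of WT over KD of 232 with a counting interval of 63.0 to 1938. Both are abundant on neutrophils, as is FCGR3B, which had 0 normalized counts in KD and 217 in WT. The part of blood-cell RNA in these differences was not tested. CCR6, the receptor of CCL20, had 0 reads in every library, and CCR2 had 4, 0 and 4 reads in KD and 2 in WT.

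The interleukin-1 receptors were high in both groups, and higher in KD. IL1R2, a decoy that binds interleukin-1 without passing on a signal, had 8055, 7605 and 7557 normalized counts in KD and 623 in WT. It was 12.4-fold higher, with a log2 difference of 3.63 (SE 0.10, limma adjusted p = 6.57e-05). IL1R1, the signalling receptor, had 30685, 32271 and 36676 in KD and 13809 in WT (log2 difference 1.26), and its partner IL1RAP had 2201 ± 115 in KD and 999 in WT (1.14). The decoy rose more than the signalling receptor in every KD library, with 26.3, 23.6 and 20.6 IL1R2 reads per 100 of IL1R1 in KD and 4.51 in WT. IL1RN, which encodes the secreted blocker of IL1R1, had 109.9, 80.8 and 75.6 in KD and 36.7 in WT (log2 difference 1.23, limma adjusted p = 0.0197) and was not called with equal totals. For every 100 IL1B reads there were 1055, 1040 and 850 IL1RN reads in KD and 70.2 in WT, and the IL1B counts behind these ratios are small.

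For IL6, the shared chain IL6ST had 12583, 11339 and 12317 normalized counts in KD and 4807 in WT (log2 difference 1.33, limma adjusted p = 1.34e-04). The specific receptor IL6R went the other way, with 197, 190.4 and 253 in KD and 349 in WT (-0.72, limma adjusted p = 0.0278), a call that was lost with median-of-ratios scaling and DESeq2. IL6R had 15.7, 16.8 and 20.6 reads for every 1000 of IL6ST in KD and 72.6 in WT. The scavenger receptors ACKR2, which takes up CC chemokines, and ACKR3 were also higher, at 1878 ± 25.7 in KD against 546 in WT and 141 ± 23.6 against 44.4. CXCR4 was not called.

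The genes of the NF-kB proteins themselves differed by less. Of 15 subunits and kinases 6 were called higher, 3 lower and 6 were not called, with a median difference of 0.17, and with equal totals 1 was higher and 8 lower. RELA, the main activating subunit, had 3987 ± 209.9 normalized counts in KD and 2725 in WT (log2 difference 0.55), and REL had 2756 ± 127 and 1878 (0.55). With equal totals both stood at -0.01 and were not called, so the direction of these subunits rests on the scaling. NFKB1, NFKB2 and RELB were not called under the deposited scaling. The direction of NFKB1 and NFKB2 also rests on the scaling: NFKB1 differed by -0.42 with equal totals and 0.42 with median-of-ratios scaling, and NFKB2 by -0.44 and 0.40, and each of these 4 values was called. Of the IkB kinase genes, CHUK was higher, at 3122 ± 198 in KD against 1222 in WT (1.35), and IKBKB was lower, at 1008 ± 61.5 against 2322 (-1.20). MAP3K14, the kinase of the non-canonical branch, was lower at 412 ± 47.5 against 827 (-1.01).

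Among 12 inhibitors of the pathway, several of which are also its targets, 6 were called higher, 1 lower and 5 were not called. With equal totals 3 were higher and 5 lower. The count called higher lies near the 45.9% of tested protein-coding genes called higher. NFKBIA, the classical inhibitor, had 7777, 7330.2 and 9039 normalized counts in KD and 3846 in WT (log2 difference 1.06, limma adjusted p = 8.1e-04), and 204, 186 and 214 reads per 100 of RELA in KD and 141 in WT. NFKBIB (2012 ± 151 in KD against 926 in WT) and TNIP3 (384 ± 42.6 against 65.5) were higher as well. TNFAIP3, the A20 enzyme that ends the signal, had 2617 ± 269 in KD and 2459 in WT and was not called under the deposited scaling. Its direction rests on the scaling: it was called lower with equal totals (-0.48) and higher with median-of-ratios scaling (0.36). NFKBID was the inhibitor called lower (-0.46), a call made in 4 of 6 fits (4 scalings, edgeR and DESeq2).

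**Figure D4:**
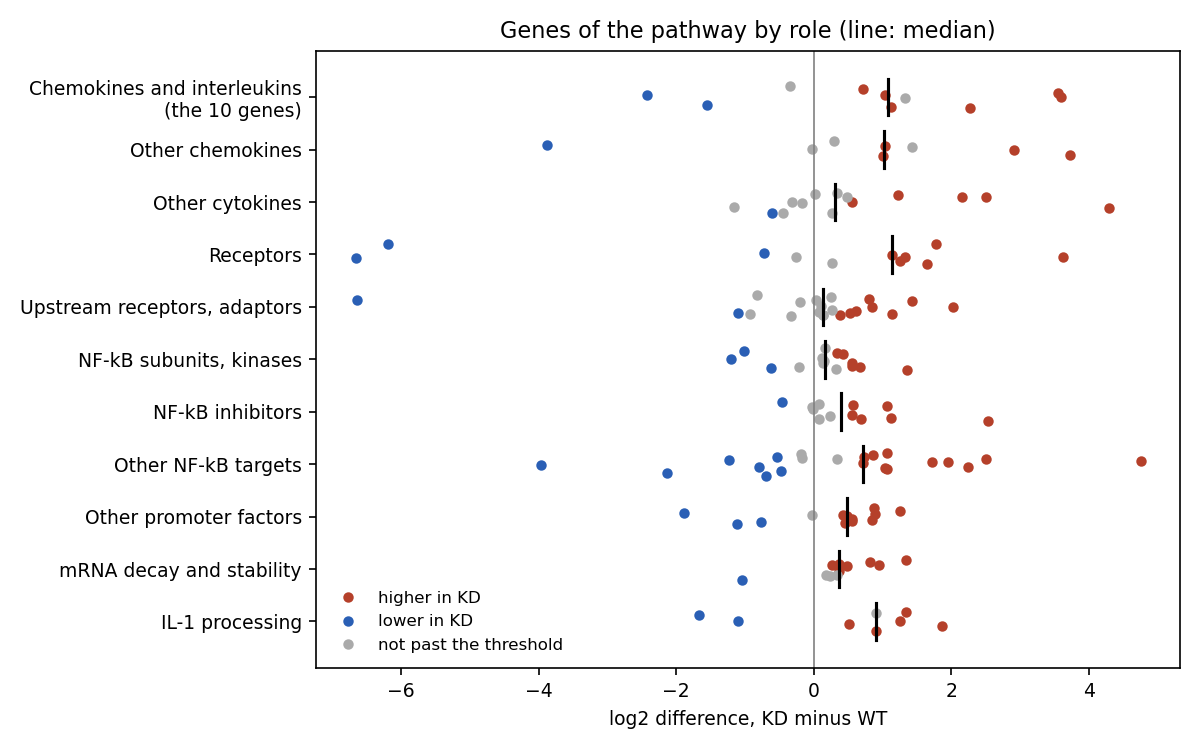
Log2 difference, KD minus WT, of the tested genes of each pathway list, with 1 point per gene and the median of the list marked. The medians are 1.14 for receptors, 0.17 for NF-kB subunits and kinases and 0.40 for inhibitors. Over all tested genes the median is -0.28, and over tested protein-coding genes it is 0.28.

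Upstream of the pathway, 8 of 21 adaptors and receptors were called higher and 2 lower, and 3 were higher and 9 lower with equal totals. Among tested protein-coding genes 45.9% were called higher and 24.7% lower. TLR3 (564 ± 53.1 in KD against 138 in WT), BIRC2 (2351 ± 178 against 872) and IRAK1 (11987 ± 747 against 5454) were higher, and TLR4, the receptor for bacterial lipopolysaccharide, had 0 reads in KD and 89 in WT, at least 107-fold lower. TLR4 is also a gene of monocytes and neutrophils, and the part of blood-cell RNA in its difference was not tested. Other known targets of NF-kB did not move as 1 group: of 21 tested, 11 were called higher and 7 lower, with a median of 0.71, whereas with equal totals 7 were higher and 9 lower, with a median of 0.15. PTGS2, the inducible cyclooxygenase, had 407, 531 and 631 normalized counts in KD and 132 in WT (log2 difference 1.95), PTGES had 114 ± 10.4 and 23.3 (2.24), and F3, tissue factor, had 717 ± 63.8 and 124 (2.51). BCL2A1 was lower at 3.38 ± 2.99 against 51.1 (-3.97). ICAM1, a common reporter of the pathway, had 661 ± 26.8 in KD and 743 in WT and was not called under the deposited scaling. With equal totals it was called lower (-0.73).

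Of the other chemokines, 8 of 25 were tested, 4 called higher and 1 lower. They included CCL28, a mucosal chemokine, at 2854 ± 287 in KD against 1395 in WT, and CXCL10, the interferon-induced chemokine, at 110.1 ± 26.3 against 53.3, whose call was lost with equal totals. CCL5, a chemokine of T cells, was lower at 4.97 ± 4.76 against 58.9, likewise called in 4 of those 6 fits. Of 24 other cytokines 14 were tested, 5 called higher and 1 lower, with a median of 0.31, whereas with equal totals 3 were higher and 5 lower and the median was -0.25. IL18, an interleukin-1 relative, had 1408, 1152 and 1333 normalized counts in KD and 291 in WT (log2 difference 2.15, limma adjusted p = 7.9e-05). IL33, another relative, had 63.3 ± 16.5 in KD and 2.22 in WT, from 2 WT reads, and its ratio had a counting interval of 7.9 to 240.1. CLCF1, a cytokine of the IL6 family, was lower at 1301 ± 199 against 1965 (-0.61). TNF, the cytokine that commonly starts the pathway, stood at 7.46 ± 1.77 in KD and 11.1 in WT and was below the filter.

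Of 13 other factors that act at these promoters, 9 were called higher and 3 lower, but 3 higher and 4 lower with equal totals. Among tested protein-coding genes 45.9% were called higher and 24.7% lower. CEBPB, a C/EBP factor, had 6489 ± 352 normalized counts in KD and 3509.8 in WT (0.89), and HIF1A had 20821 ± 1203 and 8687 (1.26). The AP-1 members FOSL1 (178 ± 17.0 in KD against 659.8 in WT, -1.88) and FOSL2 (6902 ± 658 against 14867, -1.11) were lower, as was FOS (-0.77). JUNB (0.88), JUN (0.42) and JUND (0.45) were called higher, so the AP-1 members did not move in 1 direction. With equal totals JUNB was still called higher, and JUN and JUND were not called. Chemokine and interleukin messages carry AU-rich elements that proteins use to destroy or protect them. ZFP36 (tristetraprolin), which destroys such messages, had 8275, 9524 and 8419 normalized counts in KD and 18029 in WT (log2 difference -1.05, limma adjusted p = 5.07e-04). ELAVL1 (HuR), which protects them, had 4287 ± 299 in KD and 1687 in WT (1.34). KHSRP and HNRNPD (AUF1), which also promote the decay of such messages, were higher, at 8964 ± 646 in KD against 5060.3 in WT (0.82) and 10967 ± 925 against 5653 (0.95), so the decay factors did not move in 1 direction. ZFP36 had 198, 235 and 182 reads per 100 of ELAVL1 in KD and 1069 in WT, with all KD libraries far below WT. Of the 11 genes of this list 7 were called higher, 1 lower and 3 were not called, and with equal totals 3 were higher and 5 lower. Of 11 genes that process interleukin-1 or release it, 8 were tested, 5 called higher and 2 lower, or 3 and 2 with equal totals. CASP1, the protease that cleaves the IL1B product, had 736, 571 and 628 in KD and 175 in WT (1.86), and CAPN2, a calpain, had 5762 ± 279 and 2427 (1.25). The sensors NLRP1, at 32.0 ± 13.5 in KD against 97.7 in WT (-1.67), and NLRC4, at 102 ± 15.5 against 218 (-1.10), were lower, and the NLRP1 call was made in 4 of 6 fits (4 scalings, edgeR and DESeq2).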

How the data were processed

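RNA of 3 KD libraries and 1 WT library was measured by stranded total RNA sequencing after ribosomal RNA depletion, per the labels' protocols. The tools named per the submitters' processing notes are featureCounts 2.0.6, STAR 2.7.11b and DESeq2, with build hg38. The annotation, the strand setting and the origin of the scaling factors are not stated there. The authors deposited a signal per gene, the normalized read count. Multiplied by 1 factor per library, 100% of the values came within 0.001 of a whole number, and these reads were used for the count tests, with factors of 1.0551, 1.2869 and 0.8995 for KD and 0.9003 for WT. Precision follows the recovered depth. Intervals and the floor of 3 reads cover counting error only.

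The test was limma 3.58.1 (trend, R 4.3.3) on log2(value + 1) over genes with a mean of at least 10, with p-values adjusted by Benjamini-Hochberg and called under 0.05. It was tested on simulated data. On the recovered reads, edgeR 4.0.16 called 16487 genes and DESeq2 1.42.0 called 13849, against 15794 with limma. Other alternatives changed scaling, pseudocount, filter and KD libraries. Positions and exon lengths are from GENCODE 29, which matched 92.9% of gene IDs. The 10 genes, the gene lists and the motifs were chosen with earlier results of these data known, and the motifs also with the sequences in view. From each list the text names up to 4 called genes with the largest differences and a mean of at least 50 in the higher group, besides the receptors, NF-kB subunits, inhibitors and neighbours. ICAM1, TNF, LYZ, CD68, MS4A1, ITGAM, EPCAM, NLRC4, FOS, JUNB, JUN and JUND were added after their values were seen. Sequences are from RefSeq.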

Additional observations from a re-analysis of the deposited data

How the results depend on the processing

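None of the 10 genes changed sign under the alternatives run, of which there were 12 for 7 genes and 11 for CXCL5, IL1A and IL1B. In 112 pairs of gene and alternative the call was the same, and in 5 it was lost: CXCL2 and IL6 with equal library totals, which left 4 genes called higher, and CXCL2, CXCL3 and IL6 with no filter on low values (adjusted p 0.0931, 0.0701 and 0.0813), which left 3. With no filter 41539 genes were fitted. With a mean of at least 50 only 7 of the 10 genes were tested, and the number called lower was 1, since IL1B was below that filter. edgeR and DESeq2 called the same 6 genes higher and the same 2 lower. Leaving out each KD library in turn gave 6 to 6 genes called higher, 2 to 2 called lower, and 14204 to 15053 of all tested genes called. WT could not be left out. No paired analysis was possible because WT has 1 library and shares at most 1 number with KD. Counts called higher or lower in the other gene lists moved by over 1.5 times in 60 combinations of list, direction and alternative, and by less in 348. Among all genes, median-of-ratios scaling called 37.5% higher and 28.4% lower. Depth limited CXCL5, IL1B and IL33, with 4, 47 and 2 reads in WT.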

Other observations

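Around the interleukin-1 genes on chromosome 2, 15 other genes within 500 kb were tested, of which 5 were called higher, 7 lower and 3 were not called, beside 31.4% higher and 36.3% lower over all tested genes, shares close to those of the region. IL36RN, which blocks the related interleukin-36 receptor, had 31.2 ± 12.5 normalized counts in KD and 4.44 in WT, a log2 difference of 2.50. CKAP2L, the gene next to IL1A, had 2489.8 ± 195 in KD and 1092 in WT (1.19). PAX8 had 19884 ± 1521 in KD and 62685 in WT (-1.66).

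The protein-coding genes whose profile over the 4 libraries was closest to that of CXCL8, among 11724 genes with a mean of at least 100, were ACTBL2 (302 ± 59.6 in KD against 22.2 in WT, distance 0.211), CCL20 (distance 0.233) and MT1F, a metallothionein (2096 ± 285 against 194, distance 0.248). The distance is Euclidean, between centred log2(value + 1) values. For IL1B, among 12530 genes with a mean of at least 50, the closest were ST3GAL5 (distance 0.052), ARG1 (0.071) and JAM3 (0.163). With 1 WT library, likeness mainly reflects a similar difference between KD and WT.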
